A study of Mus musculus with 16 samples.

Results

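Loss of endoglin (ENG) was compared between ligand-treated mouse lung endothelial cells (MLECs): 4 KO libraries treated with pro:BMP9 were set against 4 Ctrl libraries treated with sENG(M):BMP9, 8 of the 16 libraries of the series. The other 8 are the PBS-treated Ctrl and KO cells of the same cultures and serve here as the basal comparison. All cells came from *Rosa26*-CreERT2;*Eng* fl/fl mice on a C57BL/6 background that also carry the Immorto transgene, and each of 4 independent isolations gave 1 library per group. Excision was driven from the ubiquitous *Rosa26* locus and was induced in culture: KO cells received 4-OH-tamoxifen and Ctrl cells, which the labels call WT, received vehicle. Both genotypes were grown with interferon-γ at 20 U/ml and the TGF-β type I receptor inhibitor SB431542 at 1 μM. These agents and 4-OH-tamoxifen were withdrawn at seeding, a day before overnight serum starvation, and the cells were then treated for 90 min with PBS or with 0.2 ng/ml of the BMP9 growth factor domain. Genotype therefore coincides with 4-OH-tamoxifen exposure and, in the ligand-treated cells, with the form of the ligand, so these cannot be told apart.

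BMP9 circulates bound to its prodomain and signals in endothelial cells through the type I receptor ALK1 (gene *Acvrl1*) with a type II receptor, which leads to phosphorylation of SMAD1 and SMAD5 and to transcription of feedback genes such as *Smad6*, *Smad7* and the *Id* genes. ENG is an endothelial co-receptor that captures BMP9 at the cell surface, and mutations of *ENG* cause hereditary haemorrhagic telangiectasia. The comparison asks which genes depend on ENG when BMP9 signals: Ctrl cells received BMP9 in complex with an excess of monomeric soluble ENG, sENG(M), and KO cells received BMP9 with its prodomain, pro:BMP9.

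*Eng* (ENSMUSG00000026814, chromosome 2, 32536607 to 32572681, GRCm39) was measured first as a check of the labels. Levels are given as CPM, the count of a gene divided by its library's TMM-adjusted size and put on a common scale, and values are listed in the order of isolations 1 to 4. With ligand, *Eng* was at 652, 776, 525 and 612 CPM in Ctrl and at 115, 130, 122 and 115 CPM in KO cells. Log2 fold changes are KO over Ctrl, and ± is their standard error. Every KO library lay below every Ctrl library, with KO at 17.6%, 16.7%, 23.3% and 18.7% of the Ctrl level (log2 fold change -2.40 ± 0.10, adjusted p = 1.04e-10). Counts cover the whole gene, exons outside the deleted part included, so the remaining level does not measure excision. In PBS the log2 fold change was -3.15 ± 0.11. The change of the contrast, ligand minus PBS, was 0.75 ± 0.14 (unadjusted p = 5.88e-05, adjusted p = 0.923).

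Library totals ran from 14869115 to 17242117 counts, and 15693 of the 55414 listed genes were tested. The summed level of 14 endothelial markers ranged from 4201 to 8363 CPM over the Ctrl libraries with ligand and from 4230 to 8409 CPM over the KO libraries, with at least 11713 counts of *Pecam1* and 24142 of *Cdh5* in every library. The epithelial marker *Epcam* had at most 4 counts, *Sftpc* had 0, and *Krt8*, another epithelial marker, had 26 to 756. Of 8 leukocyte markers, *Ptprc*, *Itgam* and *Cd3e* had at most 6 counts, whereas *Cd68* had 460 to 630 and *Lyz2* 48 to 233. Fibroblast markers (10 genes) summed to 600 CPM in Ctrl and 542 CPM in KO cells of isolation 1, 86.3 and 76.6 in isolation 2, 677 and 589 in isolation 3 and 558 and 354 in isolation 4. Mesothelial markers (5 genes) summed to 430 and 270 CPM in isolation 1, 10.5 and 12 in isolation 2, 222 and 220 in isolation 3 and 38 and 42.6 in isolation 4. Fewer cells of a type and less RNA per cell cannot be told apart in these bulk samples.

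In the quasi-likelihood test of edgeR with the isolation as a block, 40 of the 15693 genes differed at an adjusted p under 0.05, which is 0.255% of the genes tested. KO cells had 14 genes higher (0.0892%) and 26 lower (0.166%), and all 40 genes are protein coding. The 14 higher genes were higher in all 4 isolations, as were 7.9% of all genes, and 25 of the 26 lower genes were lower in all 4, as were 7.35% of all genes. *Lrp2* was the exception. The 4 KO and 4 Ctrl levels did not overlap for 5 of the 40 genes (*Eng*, *Aldoc* and *Pmepa1* below, *Ttpal* and *Cdc42ep2* above), against 0.79% of all genes (0.408% below and 0.382% above). The test that chose the 40 genes used these libraries and favours differences that agree between isolations. The counts of agreement and of groups without overlap are therefore a description. Without the replicate block only *Eng* passed. With isolation 1, 2, 3 or 4 left out, 6, 15, 16 and 175 genes passed.

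**Figure D1:**
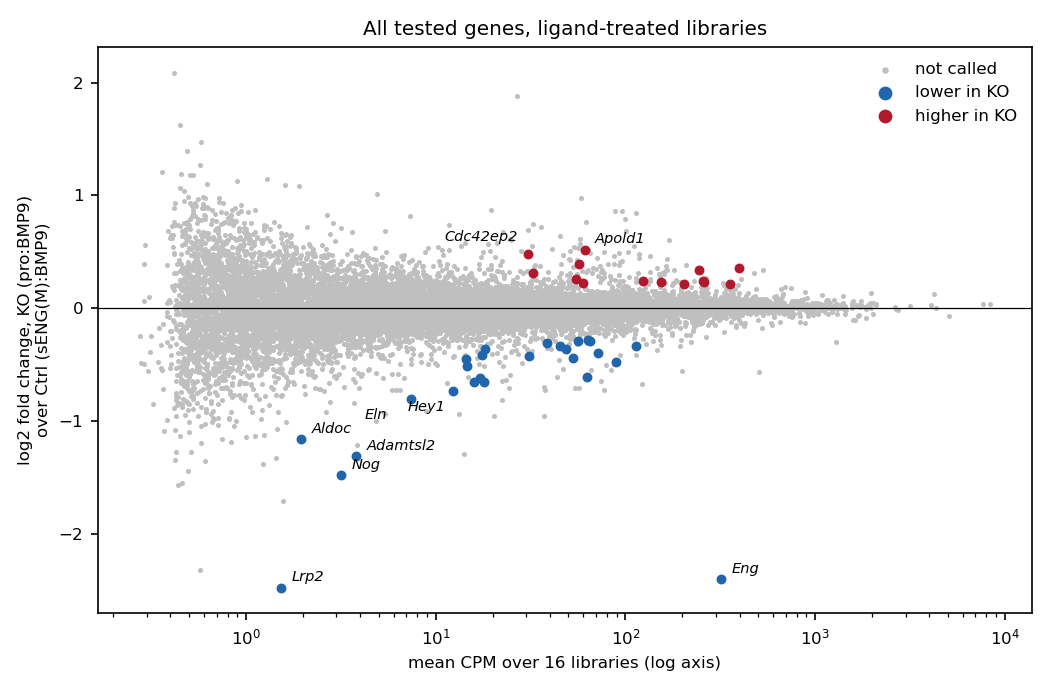
Log2 fold change between ligand-treated KO and Ctrl cells (y axis) against mean CPM over the 16 libraries (x axis, log scale), 1 point per tested gene. The 26 lower genes (blue) reach -2.48 and -2.40 for *Lrp2* and *Eng*, whereas the 14 higher genes (red) lie between 0.21 and 0.52.

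The genes are described in 3 groups: lower genes that ligand raised in Ctrl cells (18, where 5.86% of all genes rose with ligand), lower genes with no ligand call in Ctrl cells (8) and higher genes (14). The grouping orders the account and is not a result, because the ligand response of Ctrl cells uses the same ligand-treated Ctrl libraries. Of the 26 lower genes, 16 also rose with ligand in KO cells at an adjusted p under 0.05, as did 577 of 15693 tested genes. That count shares the ligand-treated KO libraries with the comparison and is a description too. The 300-base promoter windows of RefSeq (GRCm38.p6, 250 bases before to 50 after a gene's start) were searched on both strands for GGCGCC, a GC-rich SMAD1/5 element, for the interferon-stimulated response element core (GAAA, any 2 bases, GAAA), and for TTCNNNGAA, a STAT element. An entry was found for 27 of the 40 genes. *Nog*, *Hey1*, *Foxc2*, *Pmepa1*, *Eln* and *Ccn4* are among those without one. Among the ligand-raised lower genes, 4 of 10 with an entry held GGCGCC (40.0%), against 24% of 11038 tested genes with an entry and 13.4% of all 27025. These 4 were *Chst2*, *Nuak1*, *Rhoq* and *Trim62*, while *Eng*, *Bmp4* and *Adamtsl2* had 0 matches. Of those 10 genes, 1 held the response element core and 1 held TTCNNNGAA (10% each, against 3.76% and 7.95% of tested genes). Among the 11 higher genes with an entry, 2 held each motif (18.2%). This share was above that of tested genes for the response element core and TTCNNNGAA, and below their 24% for GGCGCC. Of the 6 lower genes with an entry and no ligand call, 2 held each motif (33.3%). The response element core was therefore not particular to the higher genes. A match is a description of the sequence, not a binding site. The windows with more than 1 match to GGCGCC or to the response element core are shown, with those matches in capitals: GGCGCC in *Chst2* (chr9:95407221-95407520, minus strand) and *Nuak1* (chr10:84440619-84440918, minus strand), both raised by ligand and lower in KO cells, and the response element core, read on either strand, in *Bst2* (chr8:71537423-71537722, minus strand) and *Lgals9* (chr11:78984875-78985174, minus strand), both interferon-inducible and higher in KO cells. The 2 matches in *Bst2* share 4 bases.
Chst2: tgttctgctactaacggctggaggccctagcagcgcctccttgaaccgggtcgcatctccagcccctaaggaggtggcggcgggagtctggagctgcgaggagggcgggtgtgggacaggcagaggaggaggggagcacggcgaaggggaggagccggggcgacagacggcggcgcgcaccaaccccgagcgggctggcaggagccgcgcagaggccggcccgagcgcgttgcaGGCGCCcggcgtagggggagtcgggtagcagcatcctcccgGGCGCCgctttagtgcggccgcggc
Nuak1: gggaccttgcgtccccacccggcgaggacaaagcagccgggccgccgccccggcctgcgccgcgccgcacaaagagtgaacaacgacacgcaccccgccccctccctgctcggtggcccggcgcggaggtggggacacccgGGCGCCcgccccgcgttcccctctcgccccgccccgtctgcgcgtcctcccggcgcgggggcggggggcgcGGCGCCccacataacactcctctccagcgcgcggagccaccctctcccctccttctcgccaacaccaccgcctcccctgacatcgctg
Bst2: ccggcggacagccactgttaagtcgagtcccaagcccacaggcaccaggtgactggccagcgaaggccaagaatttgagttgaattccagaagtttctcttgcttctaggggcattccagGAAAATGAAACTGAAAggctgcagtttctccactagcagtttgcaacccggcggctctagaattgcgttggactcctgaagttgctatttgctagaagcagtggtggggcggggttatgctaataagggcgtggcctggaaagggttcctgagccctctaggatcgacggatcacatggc
Lgals9: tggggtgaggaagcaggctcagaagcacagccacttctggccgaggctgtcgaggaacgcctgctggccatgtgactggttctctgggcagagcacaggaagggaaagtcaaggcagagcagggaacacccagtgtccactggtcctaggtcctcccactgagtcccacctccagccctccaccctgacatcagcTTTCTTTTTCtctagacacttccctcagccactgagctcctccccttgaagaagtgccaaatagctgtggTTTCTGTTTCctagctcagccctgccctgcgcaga

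The first group includes genes of the BMP pathway itself. *Nog*, which encodes the secreted BMP antagonist noggin, had 16.2, 15.1, 5.41 and 0.693 CPM in Ctrl cells and 6.62, 4.41, 1.88 and 0.392 in KO cells. Isolation 4 held 12 and 6 *Nog* counts, so that its ratio rests on few reads, yet KO was lower in each isolation. The log2 fold change was -1.48 ± 0.17 (adjusted p = 9.09e-04), and no change of the contrast is given because no PBS-treated library held more than 1 count. *Hey1*, a Notch and BMP target that encodes a transcriptional repressor, had 44.1, 41.0, 18.6 and 7.51 CPM in Ctrl cells and 27.4, 26.3, 9.73 and 4.51 in KO cells. KO cells held 62.1%, 64.2%, 52.3% and 60.1% of the Ctrl level, while the Ctrl level itself differed more than that between isolations. Its log2 fold change was -0.73 ± 0.11 (adjusted p = 0.00835), and that in PBS was -0.0033 ± 0.19.

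*Foxc2*, a forkhead transcription factor of lymphatic and venous endothelium, had 59.1, 79.4, 60.8 and 54.9 CPM in Ctrl cells and 43.1, 59.4, 44.1 and 43.3 in KO cells. Its level in KO cells was 72.4% to 78.8% of that in Ctrl cells (log2 fold change -0.42 ± 0.08, adjusted p = 0.0306). *Pmepa1*, an inhibitor of TGF-β signalling, had 128, 136, 113 and 101 CPM in Ctrl cells and 97.6, 98.4, 85.8 and 78.8 in KO cells. The groups did not overlap, at a log2 fold change of -0.40 ± 0.07 (adjusted p = 0.0234). *Bmp4*, a BMP ligand, had 103, 124, 55.1 and 84.1 CPM in Ctrl cells and 83.6, 105, 47.2 and 63.8 in KO cells. It was lower in KO cells within each isolation although the groups overlap (log2 fold change -0.29 ± 0.04, adjusted p = 0.00835). In PBS the 3 genes had log2 fold changes of 0.0022, 0.08 and 0.0029. The change of the contrast had an unadjusted p of 0.0119 for *Foxc2*, 3.14e-04 for *Pmepa1* and 2.05e-04 for *Bmp4*, and an adjusted p of 0.9996, 0.937 and 0.937.

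Genes of the matrix were also among the lower genes that ligand raised. *Adamtsl2*, a secreted protein that binds fibrillin microfibrils, had 6.54, 5.49, 12.4 and 17.2 CPM in Ctrl cells and 1.79, 2.2, 8.43 and 4.77 in KO cells. Isolation 3 kept 68.1% of the Ctrl level, where the other 3 kept 27.5% to 40.1% (log2 fold change -1.31 ± 0.21, adjusted p = 0.0101). In PBS the *Adamtsl2* value was -0.38 ± 0.67, on 3 to 7 counts per library. The change of the contrast was -0.93 ± 0.74 (unadjusted p = 0.225), so a difference particular to ligand was not resolved. *Eln*, the elastin gene, had 20.5, 15.6, 5.35 and 8.78 CPM in Ctrl cells and 13.5, 7.36, 4.22 and 3.99 in KO cells. The decrease was larger in isolations 2 and 4 (-1.07 and -1.11) than in isolations 1 and 3 (-0.60 and -0.33), with a fitted value of -0.80 ± 0.13 (adjusted p = 0.0132), and in PBS *Eln* had a log2 fold change of -0.35 (adjusted p = 0.70). *Ccn4*, a matricellular WNT target, had 30.8, 4.82, 24.4 and 13.9 CPM in Ctrl cells and 21.4, 3.15, 17.7 and 9.81 in KO cells. Its isolation values were close together, from -0.60 to -0.46 (log2 fold change -0.51 ± 0.08, adjusted p = 0.00926), and the PBS value was -0.33 (adjusted p = 0.37).

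The remaining 9 ligand-raised genes are enzymes and regulators outside the core BMP pathway. *Trim62*, an E3 ubiquitin ligase, had 35.4, 38.9, 20.7 and 22.6 CPM in Ctrl cells and 21.5, 24.3, 14.4 and 16 in KO cells. Its log2 fold change was -0.62 ± 0.13 with ligand (adjusted p = 0.047) and 0.09 in PBS. *Chst2*, a sulfotransferase of endothelial glycans, had 28.7, 30.2, 14 and 8.32 CPM in Ctrl cells and 22.4, 21.7, 10.3 and 5.43 in KO cells. All 4 isolations showed a decrease of similar size (log2 fold change -0.45 ± 0.08, adjusted p = 0.0137), against -0.04 in PBS. *Nuak1*, an AMPK-related kinase, had 102, 92.9, 66.2 and 51.9 CPM in Ctrl cells and 78.9, 70.7, 58.6 and 39.1 in KO cells. The decrease in isolation 3 was the smallest of the 4 (log2 fold change -0.34 ± 0.06, adjusted p = 0.0202), and the PBS value was -0.08. For *Trim62*, *Chst2* and *Nuak1* the change of the contrast had unadjusted p of 0.00208, 0.00153 and 0.0138.

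*Rgs17* (a G protein signalling regulator), *Zfp704* (a zinc finger protein), *Mdfi* (an inhibitor of MyoD family factors), *Bcl9l* (a β-catenin co-activator), *Ahdc1* (an AT-hook protein) and *Rhoq* (a small GTPase) had log2 fold changes of -0.42, -0.36, -0.36, -0.34, -0.30 and -0.28, with standard errors from 0.05 to 0.08 and each lower in 4 of 4 isolations. *Mdfi* went from 90.3, 88.2, 62.0 and 69.7 CPM in Ctrl cells to 67.4, 69.0, 48.1 and 56.8 in KO cells, whereas its PBS log2 fold change was 0.10. *Bcl9l* went from 148, 122, 174 and 160 to 107, 96.7, 150 and 127 CPM, with -0.03 in PBS. Both pairs of groups overlap, and both genes were lower in KO cells in every isolation. *Rgs17*, *Zfp704*, *Rhoq* and *Ahdc1* were also below 0 in PBS, at -0.26, -0.17, -0.10 and -0.08.

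**Figure D2:**
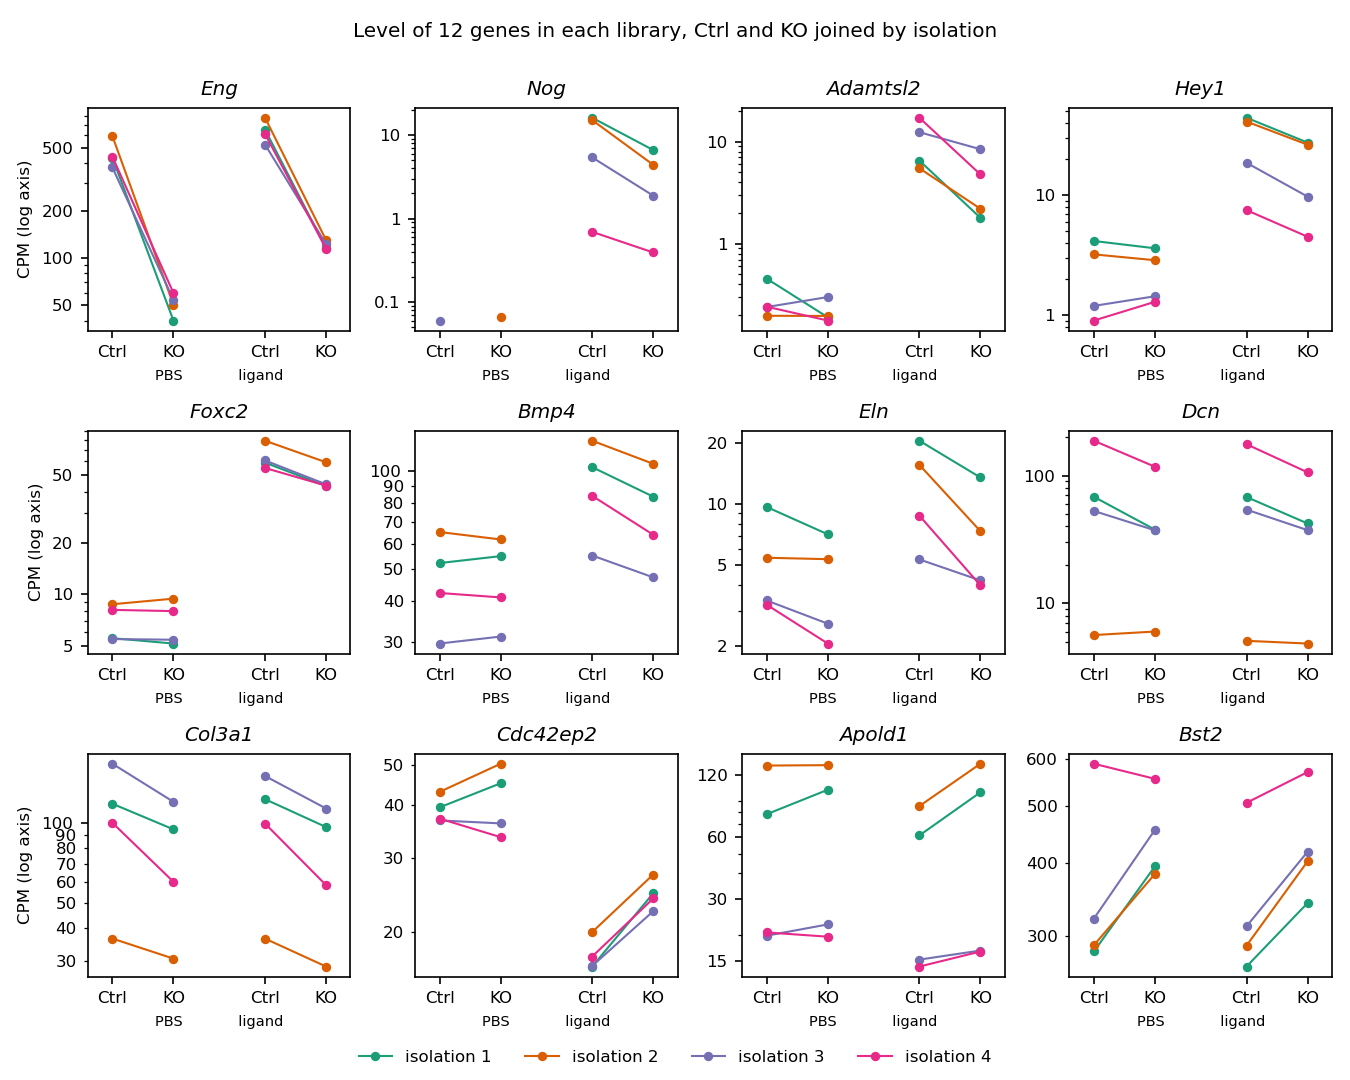
CPM (y axes, log scale) of 12 genes in the 16 libraries, with the Ctrl and KO libraries of an isolation joined by a line, PBS on the left and ligand on the right of each panel. *Hey1*, *Foxc2* and *Bmp4* separate between genotypes after ligand and hardly in PBS, whereas *Dcn* and *Col3a1* have parallel lines in both; libraries at 0 CPM (6 for *Nog*) are not drawn.

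The 8 lower genes without a ligand call in Ctrl cells had a median log2 fold change of -0.57 in PBS and include *Dcn* and *Col3a1*, which were called there beside *Eng*. *Dcn*, the proteoglycan decorin, had 68.0, 5.09, 54.2 and 176 CPM in ligand-treated Ctrl cells and 42.2, 4.85, 37.4 and 106 in KO cells. Isolations 1, 3 and 4 had log2 values of -0.69, -0.53 and -0.73, and isolation 2, with few *Dcn* reads, one of -0.07. The log2 fold change was -0.61 ± 0.09 with ligand (adjusted p = 0.00835) and -0.61 in PBS (adjusted p = 0.016). *Col3a1*, a fibrillar collagen, had 123, 36.6, 150 and 99.3 CPM in Ctrl cells and 96.3, 28.7, 113 and 58.1 in KO cells. Isolation 4 had the largest decrease, and the log2 fold change was -0.47 ± 0.07 (adjusted p = 0.00894) with ligand and -0.46 in PBS (adjusted p = 0.028). *Pdgfrb*, a receptor typical of mural cells and fibroblasts, had 47.8, 28.2, 108 and 74.1 CPM in Ctrl cells and 44.2, 22.3, 89.3 and 54.4 in KO cells (log2 fold change -0.29 ± 0.05, adjusted p = 0.0289). *Dcn* and *Pdgfrb* are themselves markers of fibroblasts and mural cells: all 7 tested fibroblast markers lay below 0 (median -0.26) and 7 of 10 mural markers did (median -0.27), with 1 of each called. In isolations 1 to 4 the fibroblast median was -0.06, -0.25, -0.22 and -0.72. The mural median was 0.09, -0.25, 0.06 and -0.39, so it lay above 0 in isolations 1 and 3. The part of such cells in these results was not tested.

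*Gpm6a*, a membrane glycoprotein, had 59.4, 5.36, 14 and 2.02 CPM in Ctrl cells and 32.7, 4.22, 9.67 and 1.31 in KO cells. Its log2 fold change was -0.66 ± 0.12 with ligand (adjusted p = 0.0304) and -0.60 in PBS (adjusted p = 0.22). *Lrp2*, the endocytic receptor megalin, had 163, 0, 9 and 3 counts in Ctrl cells and 22, 2, 0 and 1 in KO cells. Its difference rests on isolation 1, the isolation with the highest mesothelial marker level in Ctrl cells and a lower one in KO cells, and the same isolation had 134 counts in Ctrl and 41 in KO cells in PBS. The fitted log2 fold change was -2.48 ± 0.47 (adjusted p = 0.0321), and the part of mesothelial cells was not tested. *Clca3a2*, of a family of calcium-activated chloride channel regulators with near-identical members, had 9.39, 8.51, 106 and 114 CPM in Ctrl cells and 5.31, 6.42, 76.8 and 92.8 in KO cells (log2 fold change -0.44 ± 0.07, adjusted p = 0.0141). Reads of such paralogs could be split between genes, so the value is uncertain.

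A pair of metabolic genes completes the group. *Elovl6*, which elongates fatty acids, had 22.4, 24.9, 26.4 and 15.5 CPM in Ctrl cells and 15.9, 20.5, 11.5 and 9.42 in KO cells. Isolation 3 lost the most, and the log2 fold change was -0.66 ± 0.13 with ligand (adjusted p = 0.0414) and -0.70 in PBS (adjusted p = 0.18). *Aldoc*, a glycolytic aldolase, had 4.34, 2.68, 2.56 and 2.08 CPM in Ctrl cells and 2, 1.57, 0.779 and 0.916 in KO cells. All 4 KO libraries lay below all 4 Ctrl libraries at this low level, which is 12 to 29 counts in KO cells (log2 fold change -1.16 ± 0.21, adjusted p = 0.0245), and the PBS value was -0.54 (adjusted p = 0.64).

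**Figure D3:**
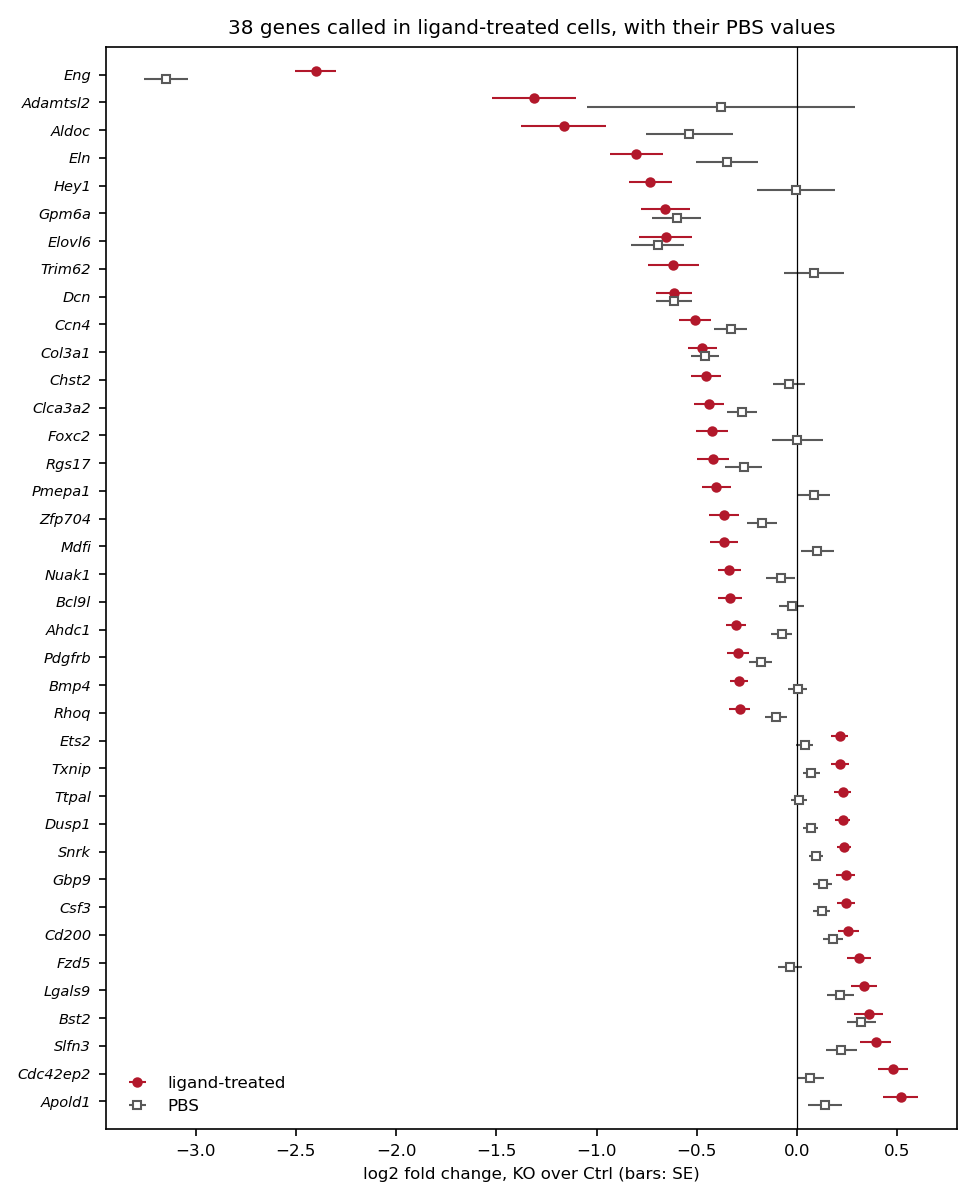
Log2 fold change of KO over Ctrl cells with its standard error (x axis) for 38 of the 40 called genes (y axis), with ligand (red circles) and in PBS (open squares). *Lrp2* and *Nog* are left out because their counts are at or near 0 in several libraries; *Dcn*, *Col3a1*, *Gpm6a*, *Elovl6* and *Bst2* have similar values in both, and *Hey1*, *Trim62*, *Foxc2*, *Bmp4*, *Fzd5* and *Cdc42ep2* lie near 0 in PBS.

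The 14 higher genes differed by small amounts, from 0.21 to 0.52 on the log2 scale. Ligand lowered 11 of them in Ctrl cells and 9 in KO cells at an adjusted p under 0.05. Over all 15693 tested genes, ligand lowered 601 in Ctrl cells and 301 in KO cells. These responses share libraries with the comparison that chose the genes, so the counts are a description. *Apold1*, an immediate early gene of endothelium, had 61.3, 85.1, 15.2 and 14.1 CPM in Ctrl cells and 99.4, 137, 16.9 and 16.7 in KO cells. The increase was larger in isolations 1 and 2 (0.70 and 0.68) than in 3 and 4 (0.15 and 0.24), at a fitted value of 0.52 ± 0.09 (adjusted p = 0.0137). *Cdc42ep2*, an effector of the GTPase CDC42, had 16.5, 20.0, 16.6 and 17.4 CPM in Ctrl cells and 24.7, 27.4, 22.4 and 24 in KO cells. Every KO library exceeded every Ctrl library (log2 fold change 0.48 ± 0.07, adjusted p = 0.00894). In PBS *Apold1* had a value of 0.14 and *Cdc42ep2* one of 0.07, and the change of the contrast had unadjusted p of 0.0060 and 5.84e-04.

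*Fzd5*, a WNT receptor, had 24.5, 29.8, 21.1 and 23.3 CPM in Ctrl cells and 34.6, 33.0, 25.8 and 28.9 in KO cells. Its log2 fold change was 0.31 ± 0.06 with ligand (adjusted p = 0.0414) and -0.03 in PBS. *Dusp1*, a phosphatase of MAP kinases, had 126, 163, 121 and 165 CPM in Ctrl cells and 152, 182, 142 and 197 in KO cells. It was higher in each isolation by 0.15 to 0.28 (log2 fold change 0.23 ± 0.04, adjusted p = 0.0137), and ligand itself did not change it past the threshold in Ctrl cells. *Cd200* (an immunoregulatory membrane protein), *Csf3* (the granulocyte growth factor G-CSF), *Snrk* (a kinase), *Ttpal*, *Txnip* (a thioredoxin inhibitor) and *Ets2* (a transcription factor) had values of 0.26, 0.24, 0.23, 0.23, 0.21 and 0.21, with standard errors from 0.04 to 0.05. Their PBS values were between 0.01 and 0.18, all above 0.

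The other 4 higher genes respond to interferon. *Bst2*, the antiviral membrane protein tetherin, had 266, 289, 312 and 506 CPM in Ctrl cells and 342, 402, 417 and 570 in KO cells. The increase was 0.36, 0.48 and 0.42 in isolations 1 to 3 and 0.17 in isolation 4 (log2 fold change 0.36 ± 0.07, adjusted p = 0.0462), and the PBS value was 0.32 (adjusted p = 0.31). *Lgals9*, the lectin galectin-9, had 184, 170, 216 and 279 CPM in Ctrl cells and 243, 245, 268 and 299 in KO cells (log2 fold change 0.34 ± 0.07, adjusted p = 0.0367). *Slfn3* and *Gbp9* had values of 0.39 and 0.24 (adjusted p = 0.0414 and 0.0321). Both belong to families with near-identical members, and exons of *Gbp9* overlap those of *Gbp4* and *Gbp8* on the same strand, so these values are uncertain. In all 4 genes the increase was smallest in isolation 4.

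Of the 40 genes, 21 had an unadjusted p under 0.05 for the change of the contrast between ligand and PBS (13 lower, 8 higher genes), against 3.6% of all genes, and 0 of 15693 passed at an adjusted p under 0.05 by edgeR or by DESeq2 with the block. The ligand-treated libraries that chose the genes also enter this test, so the count is a description. In PBS, 21 of the 26 lower genes lay below 0 and 13 of the 14 higher genes above 0, where 49.6% of all genes lay above 0. The 3 called there (0.0191% of genes) were *Eng*, *Dcn* and *Col3a1*.

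The canonical BMP9 targets and receptors are given whatever their value. *Smad6*, the inhibitory SMAD, had 402, 507, 393 and 433 CPM in Ctrl cells and 350, 392, 326 and 400 in KO cells. It was lower in 4 of 4 isolations, and its log2 fold change of -0.24 ± 0.05 fell short of the threshold (adjusted p = 0.0586). In PBS the value was 0.0031. *Dlx2*, a homeobox factor, had 16.4, 11.9, 18.2 and 4.85 CPM in Ctrl cells and 6.28, 5.73, 11.4 and 3.34 in KO cells (-0.94 ± 0.23, adjusted p = 0.0867). In PBS *Dlx2* had -0.66 ± 0.45 (unadjusted p = 0.599 for the change of the contrast). *Atoh8*, a helix-loop-helix factor, had a value of -0.31 (adjusted p = 0.145) and *Smad7*, also an inhibitory SMAD, one of -0.09 (95% interval -0.24 to 0.05). In PBS *Atoh8* had a similar value, -0.29 ± 0.14, and its change of the contrast was -0.02 (unadjusted p = 0.917). *Id1* and *Id3*, inhibitors of helix-loop-helix factors, had values of 0.02 (95% interval -0.21 to 0.24) and 0.06 (95% interval -0.08 to 0.20), intervals that do not reach the decrease fitted for *Foxc2* or *Hey1*. *Hey2* and *Tmem100* were below 4 and 1 CPM in these libraries, and their standard errors of 0.24 and 0.41 exceed their values of -0.07 and 0.03.

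Receptor genes did not pass the test. The type II receptor *Bmpr2* had 348, 276, 218 and 243 CPM in Ctrl cells and 250, 269, 208 and 190 in KO cells. The decrease was seen mainly in isolations 1 and 4 (log2 fold change -0.24 ± 0.06, adjusted p = 0.0926). The type I receptors *Bmpr1a* and *Acvr1* had values of -0.15 and -0.13 (adjusted p = 0.287 and 0.332), and the BMP9 receptor *Acvrl1* one of 0.03 ± 0.04, at 240 to 372 CPM in Ctrl and 249 to 370 in KO cells. *Acvr2a* had a value of 0.13 (adjusted p = 0.692), and for *Acvr2b* and *Tgfbr2* the sign was not determined (adjusted p = 0.991 and 0.999). *Bmpr1b*, with 42 counts over 16 libraries, was not tested.

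Counts over gene lists set these genes in context. The lists were chosen with earlier results of these data known and hold called genes, so their counts are a description. For all tested genes the median log2 fold change was 7.2e-04 in ligand-treated cells, 50.4% lay above 0, and 4.67% and 4.59% had an unadjusted p under 0.05 in the higher and lower direction. Of 60 tested SMAD target genes, 6 were called lower and 0 higher, 41 lay below 0 and 20 had an unadjusted p under 0.05 in the lower direction. The list includes *Eng*, the deleted gene, which is among the 6 and is lower by design. Their median was -0.06, with -0.07, -0.09, -0.09 and -0.08 in isolations 1 to 4 and -0.02 in PBS. By role, 12 feedback genes had a median of -0.15 (-0.01 in PBS), 27 transcription factors one of -0.03 (0.01 in PBS) and 21 other genes one of -0.04 (-0.05 in PBS). Without isolation 1 or 2, 2 of the list were called lower, *Eng* included, and without the block only *Eng*. Of 51 genes of BMP and TGF-β signalling, 5 were called lower (*Eng*, *Nog*, *Bmp4*, *Pmepa1* and *Dcn*) and 33 lay below 0. Without isolation 1, 2 were called, without isolation 2, 3, and without the block only *Eng*.

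Interferon-stimulated genes lay above 0 mainly in 3 of the 4 isolations. Of 92 tested, 3 were called higher (*Bst2*, *Lgals9* and *Slfn3*) and 0 lower, 85 lay above 0, and 70 had an unadjusted p under 0.05 in the higher direction. The median was 0.34, made up of 0.44, 0.68 and 0.39 in isolations 1 to 3 and 0.03 in isolation 4, and in PBS it was 0.20, with 0.47, 0.31 and 0.32 in isolations 1 to 3 and -0.22 in isolation 4. The calls depended on single isolations: 0 of the 92 were called without isolation 1, 2 or 3 and 66 without isolation 4, while the fit without the block called 0 and DESeq2 called 21. The 8 ligand-treated libraries alone called 10 higher. Quantile normalisation with ComBat and DESeq2 called 67, and the fit without a filter on low counts 72 of 95. Those last 2 settings also called 533 and 517 genes in all. Of the 92, 72 had a promoter entry and 36 of these held the response element core, against 3.76% of tested genes. Effector, sensor and signalling genes had similar medians of 0.35, 0.27 and 0.35. *Parp12*, a poly-ADP-ribose polymerase, is an example: it had 50.5, 47.5, 62.0 and 100.4 CPM in Ctrl cells and 66.9, 68.1, 90.3 and 104 in KO cells (log2 fold change 0.37, adjusted p = 0.0528). The Ctrl cells of isolation 4 stood above the KO cells of the other 3 isolations.

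All 18 guanylate-binding and immunity-related GTPases, which act against intracellular pathogens, lay above 0 in ligand-treated cells, with 1 called (*Gbp9*) and 13 at an unadjusted p under 0.05. Their median was 0.32, with 0.46, 0.66, 0.33 and 0.02 in isolations 1 to 4. *Gbp3* had 76.5, 72.2, 124 and 191 CPM in Ctrl cells and 117, 110, 180 and 207 in KO cells, and did not pass the threshold (0.46, adjusted p = 0.0573). Of the 18, 0 were called without isolation 1, 2 or 3 or without the block, 10 without isolation 4 and 5 by DESeq2. Quantile normalisation with ComBat and DESeq2 called 11, and the fit without a filter on low counts 13. Of 21 genes of MHC class I presentation, 20 lay above 0 (median 0.12) and 0 were called by edgeR and 2 by DESeq2, with 9 at an unadjusted p under 0.05 in the higher direction. Both genotypes had been grown with interferon-γ, which was withdrawn at seeding on the day before starvation, and the part of that earlier exposure in these differences was not tested.

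**Figure D4:**
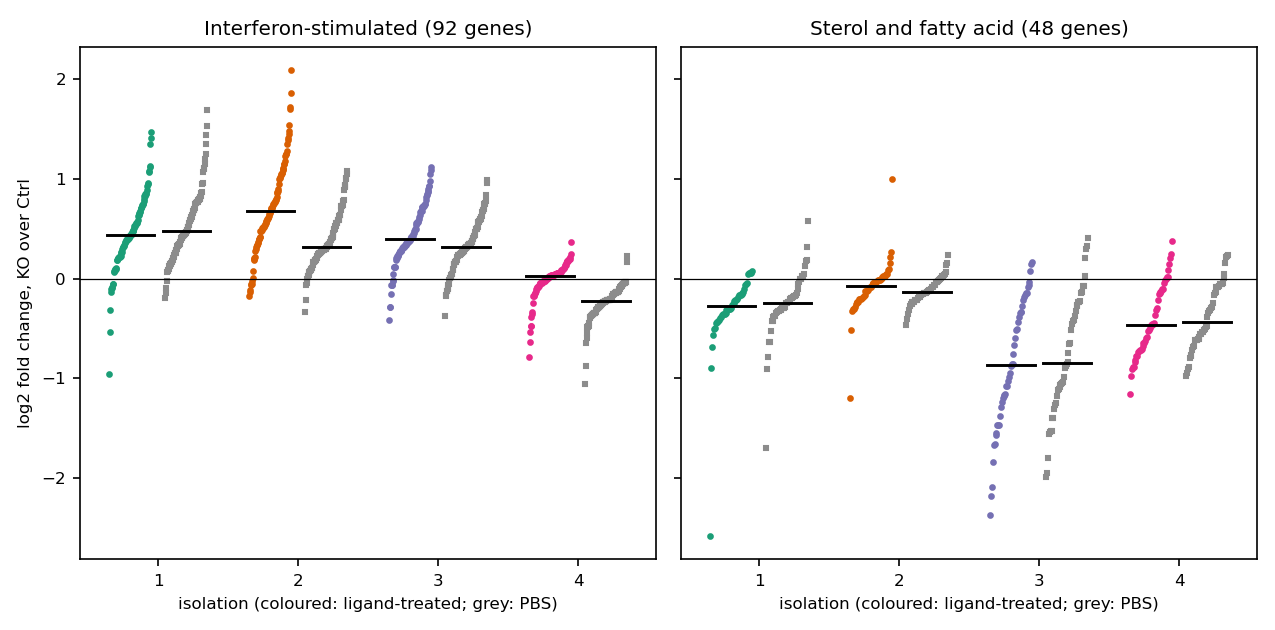
Log2 fold change of KO over Ctrl cells (y axis) for each member of the interferon-stimulated list (left, 92 genes) and the sterol and fatty acid list (right, 48 genes) in each isolation (x axis), sorted within a strip, with ligand coloured, PBS grey and the median as a bar. Isolation 4 has an interferon median of 0.03 with ligand and -0.22 in PBS, and isolation 3 has the lowest sterol medians, -0.87 and -0.84.

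The list with the lowest median held genes of sterol and fatty acid metabolism, a process that SREBP factors are known to control. Of 48 tested, 2 were called lower (*Lrp2* and *Elovl6*) and 0 higher, 44 lay below 0, and 38 had an unadjusted p under 0.05 in the lower direction. *Lrp2* is an endocytic receptor, not a synthesis enzyme, and its difference rests on isolation 1. The median was -0.48, with -0.28, -0.07, -0.87 and -0.46 in isolations 1 to 4. In PBS it was -0.43, with -0.24, -0.13, -0.84 and -0.43, with the isolations in the same order. Without isolation 3 the ligand median was -0.30, and without isolation 2 it was -0.58. In this list 0 genes were called without isolation 1, without isolation 3 or without the block, 5 without isolation 2 and 6 by DESeq2. Quantile normalisation with ComBat and DESeq2 called 29 lower, and the fit without a filter on low counts 31 of 50. The 30 sterol genes had a median of -0.56 and the 18 fatty acid genes one of -0.22. *Nsdhl*, a cholesterol synthesis enzyme, had 21.8, 24.6, 37.4 and 28.9 CPM in Ctrl cells and 17, 21.8, 16.6 and 16.4 in KO cells, and the lowest Ctrl and highest KO level were nearly equal (log2 fold change -0.63 ± 0.13, adjusted p = 0.0554). *Fads1*, a fatty acid desaturase, had 128, 153, 131 and 110 CPM in Ctrl cells and 107, 140, 72.2 and 80.3 in KO cells (-0.42 ± 0.09, adjusted p = 0.0573). Among members outside the naming rule and chosen after their values were seen, *Idi1*, *Cyp51*, *Insig1* and *Hmgcs1* had log2 fold changes of -0.96, -0.95, -0.73 and -0.65, with adjusted p of 0.0602, 0.0643, 0.0867 and 0.177. Vehicle and 4-OH-tamoxifen differed between the groups in PBS and ligand alike, and this cannot be told apart from genotype.

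**Figure D5:**
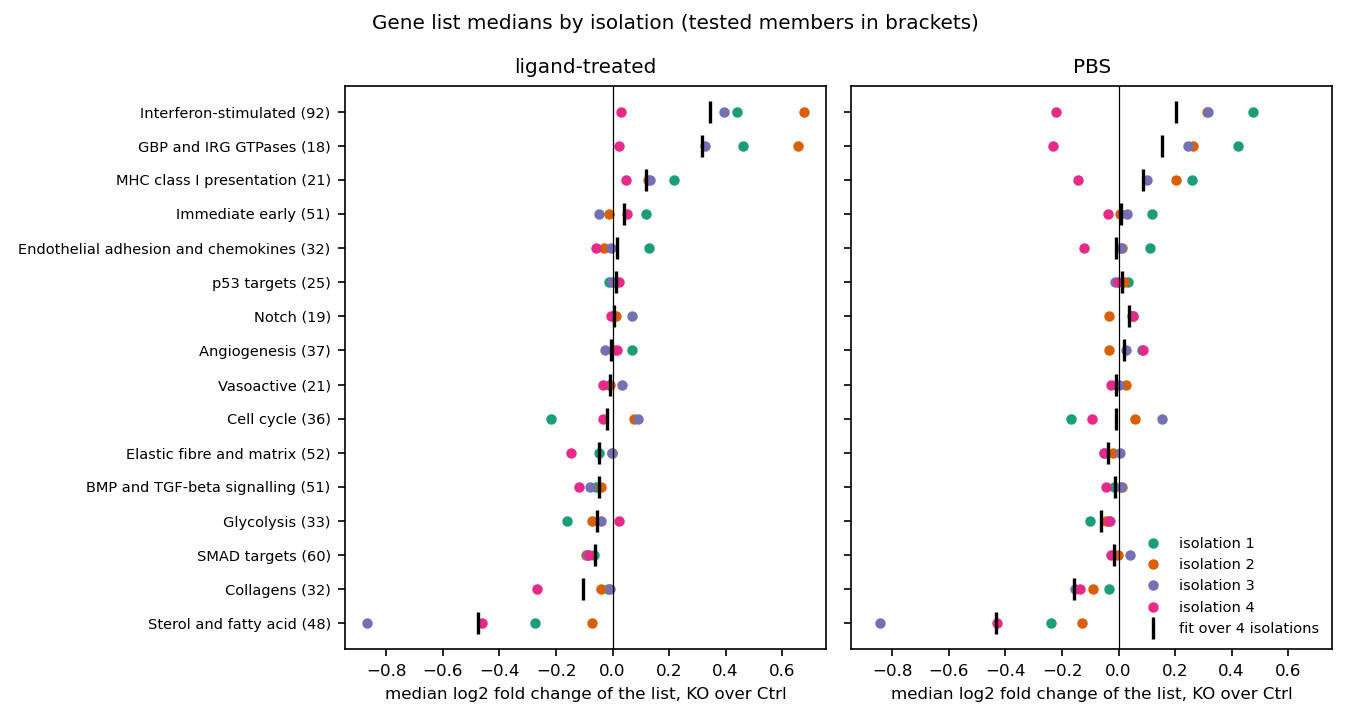
Median log2 fold change of KO over Ctrl cells (x axis) for 16 gene lists (y axis, number of tested members in brackets) in each isolation (coloured points) and in the fit over the 4 isolations (black bars), with ligand (left) and in PBS (right). The interferon, GTPase and MHC lists lie highest, at 0.34, 0.32 and 0.12, and the sterol and fatty acid list lowest, at -0.48.

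Collagen genes had 1 of 32 called lower (*Col3a1*), 25 below 0 and a median of -0.10, of which isolation 4 gave -0.27 and the other isolations between -0.042 and -0.0083. In PBS the median was -0.16. Without isolation 1, 3 collagen genes were called lower, and 0 without isolation 3 or without the block. All 11 fibrillar collagens lay below 0, with a median of -0.23. *Col6a1* had 258, 39.7, 412 and 149 CPM in Ctrl cells and 249, 34.4, 324 and 103 in KO cells (-0.29, adjusted p = 0.0573). Isolation 4 is also the one with the largest gap in summed fibroblast markers, 558 against 354 CPM. That sum includes the collagens *Col1a1* and *Col1a2*, so it is not independent of the collagen list. The part of fibroblasts was not tested. In the list of elastic fibre and matrix genes, 3 of 52 were called lower (*Eln*, *Adamtsl2* and *Dcn*) and 35 lay below 0 (median -0.05). This lean rested on isolation 4: without it 24 of the 52 lay below 0 and the median was 0.0072. In this list 0 genes were called lower without isolation 1 or without the block, and 1 without isolation 2.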

How the data were processed

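Poly-A RNA of MLECs from 4 isolations was sequenced in 16 stranded libraries. The authors deposited raw read counts per gene: per the submitters' processing notes, reads were aligned to GRCm39 with HISAT2 2.0.5 and counted with featureCounts 1.5.0-p3, and DESeq2 1.26.0 is also named. The annotation release and the strand setting of the counting are not given in the sources used here. Exons of 21 of the 40 called genes overlap a gene on the opposite strand and those of 2 a gene on the same strand. From these counts, edgeR 4.0.16 (TMM, filterByExpr by group with a minimum count of 10) fitted all 16 libraries with 4 groups and the isolation as a block, by a quasi-likelihood test with Benjamini-Hochberg adjustment over 15693 genes at 0.05. Standard errors are the log2 fold change over the square root of F, and isolation values use a prior count of 2. The replicate number marks the isolation: deviations from group means correlated at 0.710 to 0.789 between the same numbers (4 pairs) and at -0.70 to 0.324 between different numbers (12). Library totals were 14869115 to 17242117 counts. The test was checked on simulated data. Named genes were *Eng*, all called genes, canonical BMP9 targets and receptors, and members of gene lists with the smallest p. Members and lists were chosen with earlier results of these data known. Alternatives were no block, the 8 libraries alone, RLE scaling, DESeq2 1.42.0, 2 other filters, quantile normalisation with ComBat (sva 3.50.0) and DESeq2, and leaving out each isolation.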

Additional observations from a re-analysis of the deposited data

Results flagged for a closer look

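In 7 of 56 sets of 4 isolation values (log2 fold change of KO over Ctrl cells with ligand), 1 isolation stood apart by Dixon's test for 4 values, where chance at 1 in 20 gives 2.8. *Col3a1* had -0.77 in isolation 4 against -0.41 to -0.35 in the others, and the median of the collagen list had -0.269 in isolation 4 against -0.042 to -0.0083. *Gbp9* had 0.0493 in isolation 4 against 0.29 to 0.32, and *Txnip* had 0.13 in isolation 4 against 0.24 to 0.25. *Ahdc1* had -0.49 in isolation 1 against -0.26 to -0.23, and *Ets2* had 0.37 in isolation 1 against 0.15 to 0.18. *Nuak1* had -0.18 in isolation 3 against -0.41 to -0.37.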

How the results depend on the processing

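Without the replicate block, which pairs the libraries of an isolation, 1 gene was called with ligand (0 higher, 1 lower) and 1 in PBS (1 lower). DESeq2 with the block called 141 genes with ligand (75 higher, 66 lower) and 7 in PBS (2 and 5). Without a filter on low counts, 517 were called with ligand (255 and 262), 204 in PBS (106 and 98) and 52 for the difference of the contrasts (27 and 25). Quantile normalisation with ComBat and DESeq2 called 533 (265 and 268), 169 (91 and 78) and 17 (4 and 13). With at least 10 counts in every library, 28 genes were called, all among the 40 (8 higher, 20 lower). Leaving out 1 isolation at a time gave 6 to 175 called with ligand (0 to 130 higher, 6 to 45 lower) and 1 to 69 in PBS (0 to 65 higher, 1 to 4 lower). The 8 ligand-treated libraries alone gave 55 calls, 28 of them among the 40, and could give no value for PBS or the difference; RLE scaling gave 42, with all 40 among them. *Eng* was called under all 11 alternatives, *Bcl9l*, *Bmp4*, *Col3a1* and *Dcn* under 9, and no called gene changed sign. Genes near 0 did: *Tgfbr2* was 0.0022 without the filter. With 1 isolation left out in turn, *Tgfbr2* ranged from -0.027 to 0.026, *Acvr2b* from -0.35 to 0.25, *Tmem100* from -0.11 to 0.25, *Hey2* from -0.16 to 0.058 and *Id1* from -0.013 to 0.058. The cause of these changes was not tested. *Nog* in isolation 4 and *Lrp2* rest on few counts. With the block, p-values measure how differences within an isolation varied among these 4 isolations, pooled over the 4 groups. The spread of levels between isolations is taken out by the block.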

Other observations

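Other gene lists had few or no calls with ligand. Of 36 cell cycle genes 0 were called by edgeR or DESeq2 and 0 had an unadjusted p under 0.05 in either direction, with list medians of -0.22, 0.08, 0.09 and -0.03 in isolations 1 to 4. By edgeR 0 of 25 p53 targets, 37 angiogenesis genes and 21 vasoactive genes were called (0, 2 and 1 by DESeq2), with 3, 10 and 2 at an unadjusted p under 0.05. Among 19 Notch genes 1 was called (*Hey1*, lower), among 51 immediate early genes 2 (*Dusp1* and *Apold1*, higher), among 33 glycolysis genes 1 (*Aldoc*, lower, with 26 of 33 below 0) and among 32 adhesion and chemokine genes 1 (*Csf3*, higher). *Ptgs2*, a prostaglandin synthase, had 490, 468, 238 and 212 CPM in Ctrl cells and 284, 326, 179 and 160 in KO cells (log2 fold change -0.56, standard error 0.27, adjusted p = 0.563).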
